A study of Drosophila melanogaster with 6 samples.

Results

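Hml, NimC1, eater and Pxn are genes of hemocytes, the blood cells of Drosophila, and Lsp1alpha, Lsp1beta, Lsp1gamma, Lsp2 and Fbp1 are genes of the larval fat body. These 9 genes were taken by symbol from the gene and exon tables, which together list 14043 genes, and their unannotated splice events were taken by gene, giving 80 of 122483 events. RNA-seq was available for indirect flight muscle (IFM, the fibrillar muscle that powers the wings), brain and whole leg, each with 2 libraries. All 6 libraries came from w[1118] pupae reared at 27 °C and dissected at 72 h after puparium formation, so the tissues share genotype and age and no treatment was given. The labels name GENEWIZ for mRNA selection in IFM and LC Sciences in brain and leg, while the study's methods name LC Sciences alone. If the labels hold, provider and tissue cannot be told apart where IFM is compared with brain or leg. They do not give the number of animals behind a library, and p-values measure the spread between these libraries.

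Lsp1alpha, Lsp1beta, Lsp1gamma and Lsp2 encode hexamerins, storage proteins that the larval fat body secretes into the hemolymph and takes back before pupation, when the fat body cells come apart and drift through the pupa. Fbp1 (Fat body protein 1) is the receptor for that uptake. Hemocytes also float in the hemolymph or sit on tissues, and most of them are plasmatocytes, phagocytes that also secrete extracellular matrix. Hml (Hemolectin) is a large clotting protein, NimC1 and eater are phagocytic receptors with EGF-like repeats, and Pxn (Peroxidasin) is a matrix peroxidase that hemocytes secrete. The members are therefore genes of cells that were not the target of any of the 3 dissections.

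In build BDGP6, with positions from the matching Ensembl annotation, Lsp2 lies at chromosome 3L, 12129393 to 12131869, on the plus strand, and overlaps the antisense gene asRNA:CR11538. Lsp1gamma lies at 3L, 66430 to 68995, plus strand. Fbp1 lies at 3L, 14094589 to 14098053, minus strand. Lsp1beta is on 2L, 898500 to 901316, plus strand, and Lsp1alpha on X, 12490291 to 12492982, plus strand. Hml spans 3L, 13846054 to 13860001, plus strand, eater 3R, 27095867 to 27099679, minus strand, and NimC1 2L, 13973158 to 13976769, minus strand. Pxn, at 3L, 2601455 to 2630064 on the minus strand, overlaps CG16986 and 3 long noncoding RNA genes and has no exon bin of its own in the exon tables, so its level per library was not analysed here. The other 8 members have 46 exon bins with a value in all 6 libraries, between 2 and 4 bins in each of NimC1, eater, Fbp1 and the hexamerins and 27 in Hml.

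Exon-bin counts were summed per gene, and levels are given as CPM, counts scaled to library size with factors from trimmed means (TMM), for the first and the second library of a tissue in the order of the table's columns. The libraries hold between 67026973 and 177954954 exon-bin counts. Between IFM and brain, markers fitted the labelled tissues. All 6 flight muscle markers tested were called higher in IFM than in brain (33.1% of all genes). All 5 neuron markers and all 6 glia markers were called higher in brain than in IFM (33.5% of all genes). The flight muscle actin gene Act88F still reached 408 and 206 CPM in brain. In IFM against leg, only 3 of the 6 flight muscle markers were called higher in IFM (29.8% of all genes), and the rest were not called. The scaling factors were 0.687 and 0.598 for IFM, 1.57 and 1.71 for brain, with 0.957 and 0.949 for leg. Scaling by total counts alone moved the median log2 fold change of all genes by −1.35 in IFM against brain, −0.57 in IFM against leg and 0.78 in brain against leg. The share of called genes that were higher in IFM than in brain fell with it, being 49.7% under TMM and 24.5% under total counts, and the shares higher in IFM than in leg (51.9%) and in brain than in leg (51.9%) became 33.4% and 79.9%.

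The libraries of a tissue were not alike for the genes described here. Differences between libraries are given here in log2(CPM + 1). In IFM, the second library was higher for eater by 1.54, for Hml by 1.26 and for NimC1 by 0.69. These differences were larger than those of 98.5%, 94.9% and 85.1% of 7056 genes with a mean of at least 5 CPM. NimC1 itself was below that mean in IFM, at 2.53 and 4.71 CPM. The second IFM library was lower for all 5 fat body genes, by 0.22 to 0.46, more than 45.0% to 75.3% of genes. In brain, the second minus the first library was −0.77 for Fbp1, −0.58 for Lsp2, −0.56 for Lsp1gamma and −0.33 for Lsp1beta. These differences were larger than those of 98.7%, 94.4%, 93.3% and 72.1% of 7118 genes. Lsp1alpha differed there by 0.05, Hml by −0.19, NimC1 by −0.16 and eater by −0.08. In leg the hemocyte genes differed by at most 0.06 between libraries, while the second library was higher for all 5 fat body genes by 0.52 to 0.81, more than 94.6% to 98.4% of genes. The summed level of Hml, NimC1 and eater was thus 39.3 and 103 CPM in IFM, 59.2 and 52.3 CPM in brain and 140.5 and 143 CPM in leg, and that of the 5 fat body genes was 1317 and 1039 CPM in IFM, 184 and 118 CPM in brain and 246 and 389.9 CPM in leg. Of these groups the fat body genes were therefore highest in both IFM libraries and the hemocyte genes in both leg libraries.

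**Figure D1:**
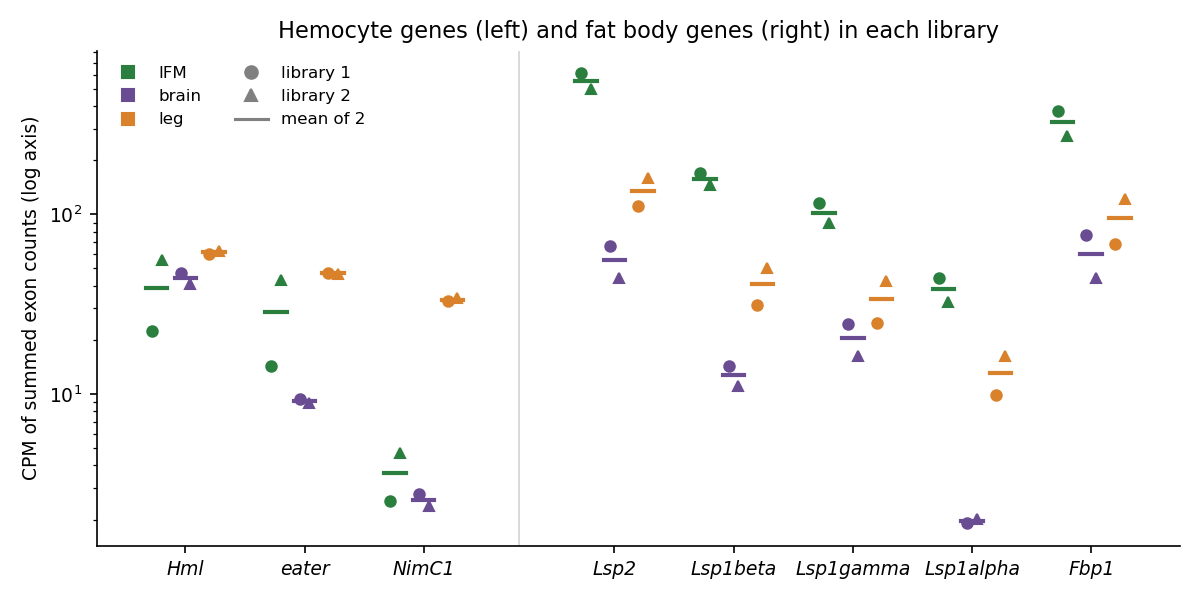
Level of 8 genes in each library, as TMM-scaled CPM of summed exon counts on a log axis, with library 1 as a circle, library 2 as a triangle and the mean of the tissue's 2 libraries as a bar. The fat body genes sit highest in both IFM libraries, while NimC1 is near 33 CPM in leg and under 5 CPM elsewhere.

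All 5 fat body genes were higher in IFM than in brain and higher in IFM than in leg. In IFM against brain, 6 of the 8 members tested were called at an adjusted p under 0.05, against 66.6% of all 12342 genes tested in either direction. All 6 were called higher in IFM, a direction that held for 33.1% of all genes. In IFM against leg, 6 of 8 members were called, against 57.3% of all genes. There the 5 fat body genes were called higher in IFM (29.8% of all genes) and NimC1 was called higher in leg (27.6% of all genes). In brain against leg, 5 of 8 members were called, against 43.5% of all genes, and all 5 were higher in leg (20.9% of all genes). In these whole tissues, fewer cells of a type and less RNA per cell cannot be told apart.

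Lsp2, the most abundant hexamerin, reached 610.3 and 498 CPM in IFM, 67 and 44.4 CPM in brain and 111 and 159.5 CPM in leg. The 3 tissues did not overlap, with IFM highest and brain lowest. IFM was 9.94-fold above brain (log2 fold change 3.31, SE 0.30, adjusted p = 0.000188) and 4.10-fold above leg (2.04, SE 0.29, adjusted p = 0.0018). Leg was 2.43-fold above brain (brain over leg −1.28, SE 0.28, adjusted p = 0.012). This last call was lost without the second brain library (adjusted p = 0.0513), without the second leg library (0.0577) and under scaling by total counts (−0.51, adjusted p = 0.16). The antisense gene asRNA:CR11538 has counts of its own in the tables, and their number was between 88.1% and 91.1% of that of Lsp2 in every library. The libraries were stranded by the study's methods, but how the counting used strand is not given in the sources used here, so reads of this gene and of Lsp2 cannot be told apart.

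The Lsp1 genes encode the subunits of the other larval serum protein hexamer. Lsp1beta was at 169.8 and 146 CPM in IFM, 14.3 and 11.1 CPM in brain and 31.3 and 50.3 CPM in leg. It was 12.4-fold higher in IFM than in brain (log2 3.64, SE 0.28, adjusted p = 9.97e-05), 3.88-fold higher in IFM than in leg (1.95, SE 0.27, adjusted p = 0.00154) and 3.21-fold higher in leg than in brain (adjusted p = 0.00303). Its tissues kept the order of Lsp2.

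Lsp1alpha had 44.3 and 32.4 CPM in IFM, 9.93 and 16.3 CPM in leg and only 1.91 and 2.01 CPM in brain, where it rested on 215 and 230.0 counts. IFM was 19.5-fold above brain (log2 4.29, SE 0.32, adjusted p = 8.5e-05), the largest fold of any member in the 3 comparisons, and leg was 6.7-fold above brain (adjusted p = 0.00066). IFM was 2.92-fold above leg (log2 1.54, SE 0.29, adjusted p = 0.00536).

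Lsp1gamma was at 116 and 89.1 CPM in IFM, 24.4 and 16.3 CPM in brain and 25 and 42.4 CPM in leg. IFM stood 5.03-fold above brain (log2 2.33, SE 0.33, adjusted p = 0.00126) and 3.04-fold above leg (1.60, SE 0.32, adjusted p = 0.00728). Brain and leg nearly touched, at 24.4 and 25 CPM, and their difference did not pass the test (brain over leg −0.73, SE 0.32, adjusted p = 0.113, 95% interval of the ratio 0.355 to 1.03). It passed without the first leg library (−1.15, adjusted p = 0.0241).

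Fbp1, the hexamerin receptor, had 376 and 273 CPM in IFM, 76.5 and 44.5 CPM in brain and 68.8 and 121 CPM in leg. It was 5.37-fold higher in IFM than in brain (log2 2.42, SE 0.39, adjusted p = 0.00216) and 3.42-fold higher in IFM than in leg (1.77, SE 0.38, adjusted p = 0.00919). The brain and leg libraries overlapped (brain over leg −0.65, SE 0.37, adjusted p = 0.204, 95% interval of the ratio 0.341 to 1.19).

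For the 5 fat body genes, the 10 calls of IFM against brain and against leg held without any 1 library and under each alternative tried, but total-count scaling gave much smaller folds. Under it the log2 fold change of IFM over brain was 2.95 for Lsp1alpha, 2.30 for Lsp1beta, 1.99 for Lsp2, 1.11 for Fbp1 and 1.003 for Lsp1gamma, and that of IFM over leg lay between 0.99 for Lsp1alpha and 1.48 for Lsp2.

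**Figure D2:**
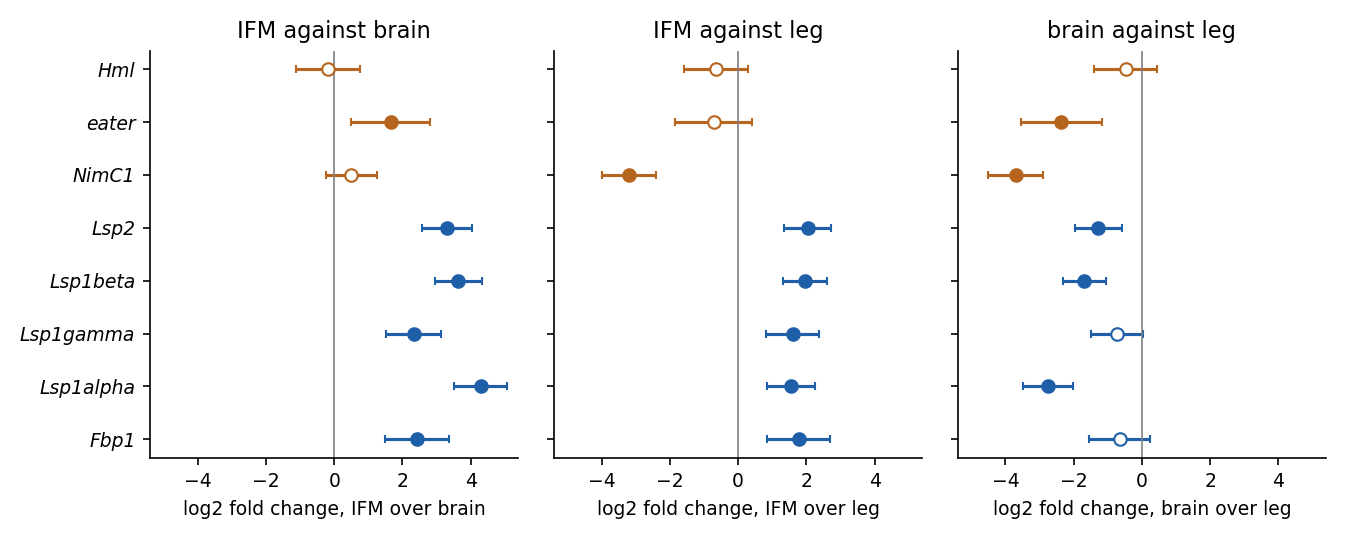
Log2 fold change of 8 genes in the 3 comparisons, with points for the estimate and bars for its 95% interval. Filled points are called at an adjusted p under 0.05, open points are not, brown marks hemocyte genes and blue fat body genes. In the left and middle panels the blue points lie between 1.54 and 4.29, and in the right panel the points of all genes lie below 0.

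Per length, Lsp2 led the members in every tissue, at 224 CPM per kb in IFM, 22.5 in brain and 54.6 in leg. It ranked 360th of 12388 genes in IFM, 2174th in brain and 913th in leg. Fbp1 followed, at 95.4, 17.8 and 27.9 CPM per kb in IFM, brain and leg. Lsp1beta was above Lsp1gamma in IFM, at 60.6 against 40.9 CPM per kb, and below it in brain, at 4.87 against 8.14. Lsp1alpha was the lowest fat body gene in each tissue, at 14.6 CPM per kb in IFM, 0.747 in brain and 5.00 in leg.

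Ratios between members within a library do not depend on scaling, and they show how the hexamerin mix differed between tissues. Fbp1 and Lsp1gamma stayed closest, with Fbp1 between 2.00 and 2.39 times Lsp1gamma per base in all 6 libraries. Lsp2 was 5.33 and 5.64 times Lsp1gamma in IFM, 4.48 and 3.8 times in leg and only 2.77 and 2.75 times in brain. Relative to Lsp1alpha, Lsp2 was 14.6 and 16.3 in IFM, 11.8 and 10.3 in leg and 37.2 and 23.4 in brain. Brain therefore had less Lsp1alpha and more Lsp1gamma and Fbp1 for its Lsp2 than the other tissues, with no overlap between brain and the other libraries for the ratios of Lsp2 to Lsp1gamma (2.05-fold range), Fbp1 (2.08-fold range) and Lsp1alpha (3.6-fold range). The ratio of Lsp2 to Lsp1beta varied least of the hexamerin pairs, from 3.34 to 4.95.

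**Figure D3:**
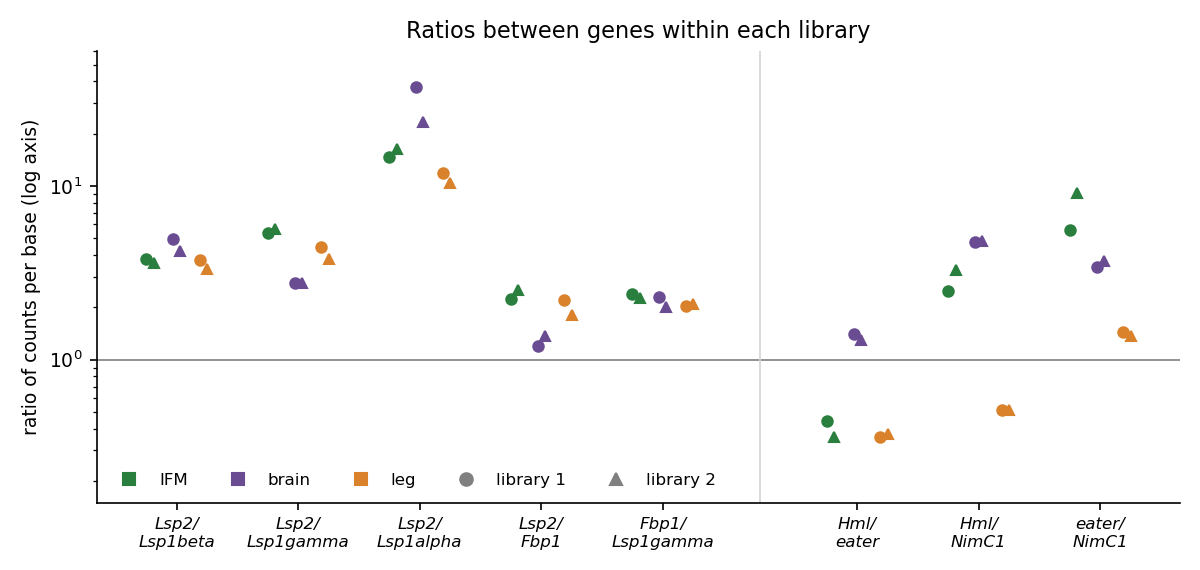
Ratios of counts per base between pairs of genes within each library, on a log axis, with library 1 as a circle and library 2 as a triangle. Brain stands apart for Lsp2 over Lsp1gamma and over Lsp1alpha, and leg stands apart for both ratios to NimC1, at 0.516 and 0.512 for Hml and 1.44 and 1.36 for eater.

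The hemocyte genes differed from each other as well as from the fat body genes. NimC1 was at 32.8 and 34.1 CPM in leg, against 2.53 and 4.71 CPM in IFM and 2.76 and 2.38 CPM in brain. Leg was 9.21-fold above IFM (IFM over leg log2 −3.20, SE 0.33, adjusted p = 0.00051) and 13-fold above brain (brain over leg −3.70, SE 0.34, adjusted p = 0.000284). Both calls held under every alternative tried. IFM and brain overlapped for NimC1 (IFM over brain 0.50, SE 0.31, adjusted p = 0.192), a difference that was called without the first IFM library (0.998, adjusted p = 0.0069) and turned to −0.88 (adjusted p = 0.0214) under total-count scaling.

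Eater was at 47.3 and 46.7 CPM in leg, 9.43 and 8.86 CPM in brain and 14.2 and 43.2 CPM in IFM. Leg was 5.14-fold above brain (brain over leg log2 −2.36, SE 0.49, adjusted p = 0.00906), a call that was lost without the first (adjusted p = 0.0621) or the second brain library (0.0634). IFM was 3.14-fold above brain (log2 1.65, SE 0.47, adjusted p = 0.0214), with a size that depended on the IFM library. Without the second the log2 fold change was 0.76 (adjusted p = 0.0109) and without the first it was 2.36 (adjusted p = 0.000194). The call was lost without either brain library (adjusted p = 0.0839 and 0.0942) or under total-count scaling (0.25, adjusted p = 0.588). IFM against leg did not pass the test (−0.71, SE 0.46, adjusted p = 0.231, 95% interval of the ratio 0.281 to 1.33) and passed without the second IFM library (−1.69, adjusted p = 0.00212) and under total-count scaling (−1.33, adjusted p = 0.0301).

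Hml varied least between tissues, with 22.5 and 55.4 CPM in IFM, 47 and 41.1 CPM in brain and 60.4 and 62.4 CPM in leg. The IFM libraries enclosed the brain libraries, and no comparison passed the test under TMM scaling. The log2 fold change was −0.18 for IFM over brain (SE 0.38, adjusted p = 0.704, 95% interval of the ratio 0.463 to 1.69), −0.66 for IFM over leg (SE 0.39, adjusted p = 0.189, interval 0.332 to 1.22) and −0.48 for brain over leg (SE 0.39, adjusted p = 0.355, interval 0.375 to 1.37). Without the second IFM library, Hml was called lower in IFM than in brain (−0.84, adjusted p = 0.0103) and than in leg (−1.41, adjusted p = 0.00343), and without the first it was 0.46 higher in IFM than in brain (adjusted p = 0.0545). Brain over leg was called when the 2 IFM libraries were left out together (−0.50, adjusted p = 0.0333) or either of them was (adjusted p = 0.0186 and 0.0199). Under total-count scaling Hml was called lower in IFM than in brain (−1.56, adjusted p = 0.00527) and than in leg (−1.27, adjusted p = 0.0164).

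Within a library, Hml was 2.50 and 3.30 times NimC1 per base in IFM and 4.77 and 4.83 times in brain, but 0.516 and 0.512 times in leg. Hml over eater was 1.40 and 1.30 in brain and between 0.358 and 0.445 in the IFM and leg libraries. Eater over NimC1 was highest in IFM, at 5.61 and 9.15, followed by brain with 3.41 and 3.71 and leg with 1.44 and 1.36. The 3 hemocyte genes thus did not keep a common ratio across tissues: leg had the most NimC1 for its Hml and eater, and brain had the least eater for its Hml. Per length, eater was the highest of the 3 in IFM and leg, at 8.70 and 14.2 CPM per kb, while Hml was the highest in brain, at 3.75 CPM per kb. Lsp2 over Hml ranged more widely than any other ratio computed, from 5.13 in brain to 128 in the first IFM library.

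Pxn could be followed only through the gene tables, where the authors' mean normalized signal pools the 4 libraries of a comparison. That mean was 7449 for IFM and brain, 3706 for IFM and leg and 7298 for brain and leg, so the tables with brain were about alike and the table without it was lower. The tables were normalized separately. After each mean was divided by the size of its libraries in the exon counts, the 3 means gave relative levels of 43.7 in IFM, 109 in brain and 50.6 in leg, or 0.401 for IFM over brain and 2.16 for brain over leg. The same calculation for the other 8 members came within 0.586 to 1.37 times of the ratios in the exon counts, with NimC1 and Lsp1alpha farthest off, which sets how coarse the Pxn values are. No replicate error or test can be given for them. Of the 4 hemocyte genes, Pxn alone had its highest level in brain with these library sizes. Under total-count scaling Hml was highest in brain too, at 24.3, 72 and 58.5 CPM in IFM, brain and leg. Solved from the authors' means as for Pxn, with TMM-scaled library sizes, Hml was highest in leg. Its relative levels were then 14.7, 17.3 and 23.6 for IFM, brain and leg.

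The genes whose pattern over the 6 libraries was most like that of Hml were not its fellow hemocyte genes. By the root mean square difference of centred log2(CPM + 1) over 7575 genes, the nearest were Vps13 (0.0740), a lipid transfer protein, Cyp4e2 (0.171), a cytochrome P450, Tmem63 (0.199), CG13046 (0.213) and PGRP-LE (0.230), a peptidoglycan receptor. Eater ranked 3725th (0.814) and NimC1 5327th (1.21). Vps13 was at 126.5 and 267 CPM in IFM, 248 and 213 CPM in brain and 338 and 345 CPM in leg, with the same gap between the IFM libraries. For Lsp2 the nearest was its overlapping antisense gene asRNA:CR11538 (0.0158), then Lsp1beta (0.158), Ahcy (0.225), the S-adenosylhomocysteine hydrolase, eEF1alpha2 (0.235), a translation elongation factor, and vg (0.24), the vestigial transcription factor of wing and flight muscle. Fbp1, Lsp1gamma and Lsp1alpha ranked 137th, 207th and 224th. The points share library and scaling, and each gene's 6 values are 2 libraries of 3 tissues, so these are descriptions.

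Other genes of the same cells were read from lists of known markers. Of 15 other plasmatocyte genes, 12 had exon bins and were tested. Leg was called higher than IFM for 10 of them (27.6% of all genes) and higher than brain for 9 (20.9%), and 0 were called lower in leg. The list's median log2 fold change was −1.92 for IFM over leg and −1.87 for brain over leg, against 0.08 and 0.03 over all genes tested. In IFM against brain, 3 were called higher in IFM (33.1% of all genes) and 4 higher in brain (33.5%), with a median of −0.18. The most abundant were the collagen IV genes Col4a1 (294 and 609 CPM in IFM, 555 and 492 in brain, 2172 and 2175 in leg) and vkg, the matrix protein gene Ppn and the ferritin gene Fer1HCH. Of the 12 genes, 10 were higher in the second IFM library than in the first. Col4a1, vkg (179 and 388 CPM), Ppn (257 and 548 CPM) and Sr-CI were so by 1.85 to 2.18 times, like Hml and eater in direction, and the other 6 by 1.05 to 1.42 times. He and Fer1HCH (198.5 and 188 CPM) were lower there. Over 7056 genes of at least 5 CPM, the second minus the first IFM library had a median of 0.045 in log2(CPM + 1). The 5th and 95th percentiles were −1.24 and 0.54. A somewhat higher level in the second IFM library was thus common among all genes. He (Hemese), a surface protein of all hemocytes, was between 0 and 0.445 CPM in the 6 libraries. The summed level of the 12 genes was 1089 and 1933 CPM in IFM, 1791 and 1684 CPM in brain and 5951 and 6035 CPM in leg. In leg, much of this sum was Col4a1, vkg (1160 and 1175 CPM), Ppn (1184 and 1162 CPM) and Fer1HCH (788 and 882 CPM). Which cells carried these transcripts was not tested. All 6 epidermis and cuticle markers tested were called higher in leg than in brain (20.9% of all genes), and 5 also higher than in IFM (27.6%). The remaining 1 was called the other way, higher in IFM than in leg (29.8% of all genes). Between IFM and brain, 3 of these markers were called higher in IFM (33.1%) and 1 higher in brain (33.5%). The summed level of the 6 markers was 575 and 379.7 CPM in IFM, 316 and 285 CPM in brain and 1892 and 1690.3 CPM in leg. Their part in the leg levels of the hemocyte genes was not tested.

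Crystal cells, which carry out melanization, and lamellocytes were covered by 6 genes. The prophenoloxidase genes PPO1 and PPO2 were called higher in IFM than in leg. PPO1 was at 5.56 and 10.2 CPM in IFM, 2.74 and 5.01 CPM in brain and 2.64 and 2.56 CPM in leg. PPO2 was at 4.95 and 8.01 CPM in IFM, 14.7 and 10.3 CPM in brain and 1.36 and 2.32 CPM in leg. It was also called higher in brain than in leg (adjusted p = 0.00242), and neither gene was called between IFM and brain. The crystal cell transcription factor gene lz was between 0.0795 and 0.242 CPM in IFM and leg and at 2.12 and 2.02 CPM in brain. The lamellocyte surface gene atilla was called lower in IFM than in both other tissues.

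Of 17 other fat body genes, 13 were tested, and they went both ways. In IFM against brain, 3 were called higher in IFM (33.1% of all genes) and 7 higher in brain (33.5%). The median log2 fold change was −0.85 against −0.01 over all genes. In IFM against leg, 3 were called higher in IFM (29.8% of all genes) and 5 higher in leg (27.6%), with a median of −0.28. In brain against leg, 3 were called higher in brain (22.6% of all genes) and 6 higher in leg (20.9%), with a median of −0.11. Obp99b, a secreted odorant-binding protein, was the listed gene that stood with the hexamerins among the 4 most abundant, at 241 and 142 CPM in IFM, 19.5 and 18 CPM in brain and 42.9 and 75.4 CPM in leg. Like the hexamerins, it was lower in the second IFM library and higher in the second leg library. The 13 genes did not share this pattern, since some were higher in the second IFM library and some lower in the second leg library. Ppl, a glycine cleavage gene named here after its values were seen, was at 201 and 207 CPM in IFM, 17 and 16.3 CPM in brain and 31 and 36.7 CPM in leg. The lipoprotein gene apolpp was at 194 and 182 CPM in IFM, 175 and 139 CPM in brain and 94.3 and 85.3 CPM in leg, and was called higher in IFM than in leg only. Tsf1, a transferrin, had 39.8 and 15.5 CPM in IFM and 429 and 489 CPM in brain, and the growth factor gene Idgf4 had 64.9 and 83.6 CPM in IFM and 627 and 628 CPM in leg. The 9 genes tested for antimicrobial peptides and bomanins, which fat body and hemocytes make upon infection, summed to between 4.33 and 18.1 CPM in all libraries, with Drs the most abundant at up to 9 CPM.

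**Figure D4:**
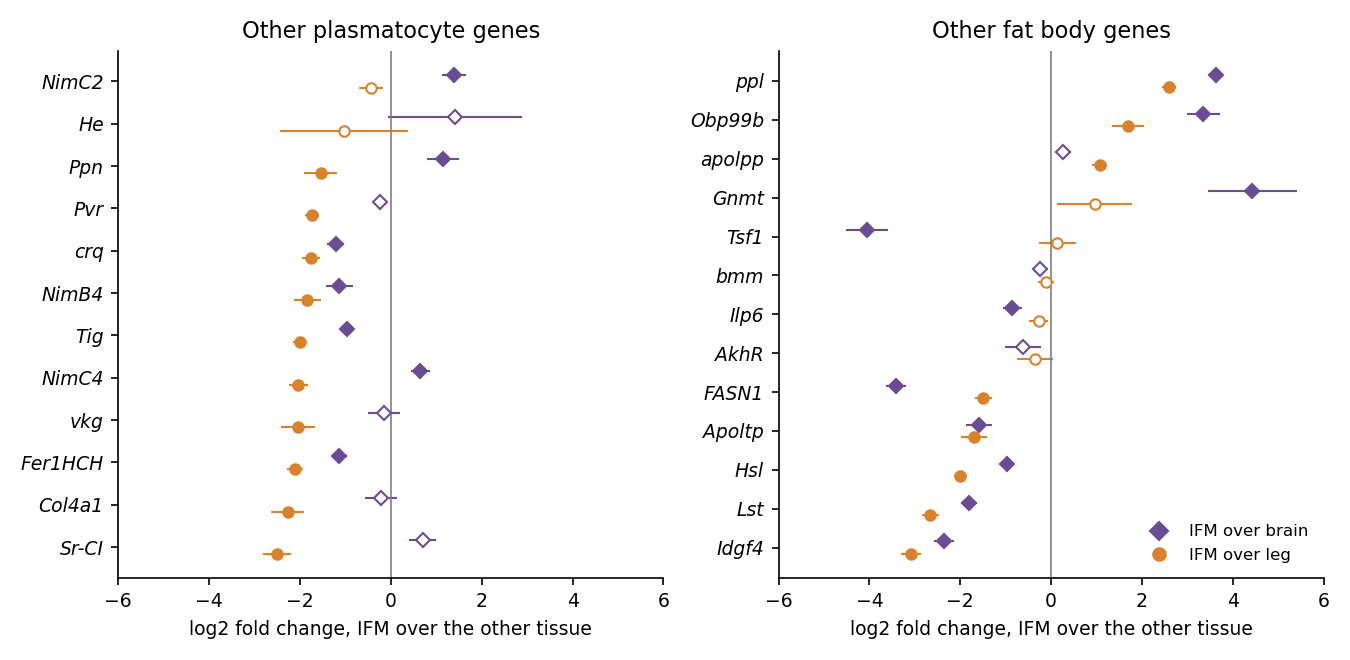
Log2 fold change of IFM over brain (diamonds) and over leg (circles) for 12 other plasmatocyte genes and 13 other fat body genes, with bars of 1 SE and filled points for calls at an adjusted p under 0.05. The leg comparison lies below 0 for all 12 plasmatocyte genes, between −2.51 and −0.45, while the fat body genes spread from −4.06 to 4.43.

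No difference in exon use between tissues was detected for the members. None of the 46 member bins passed in any comparison by edgeR's test of exon use, against 7.03% of 60261 bins in IFM against brain, 3.87% in IFM against leg and 4.16% in brain against leg, and 0 passed under total-count scaling, a lower filter or without any 1 library. At an unadjusted p under 0.05 there were 3 of the 46 in IFM against brain, 0 in IFM against leg and 1 in brain against leg. The share of all bins at that unadjusted level is not given here, and the shares above are of adjusted calls. The lowest adjusted p was 0.127, for the first 298 bases counted in Lsp1beta, which held 0.821% and 1.34% of the gene's counts for IFM, 3.86% and 2.36% for brain and 1.29% and 1.27% for leg. The first 292 bases of Lsp1gamma had 1.86% and 1.83% in IFM against 5.05% and 4.67% in brain (adjusted p = 0.144). The long second bin of eater held between 77.6% and 87.0% of its counts. Hml counts ran along the whole gene, with its last 5 bins at 31.3% to 36.6% of the gene's counts in every library, so its level did not rest on a few bins.

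The tool fortuna counts reads across splice events that the annotation lacks, and 80 such events were assigned to the members. Of these 73 skip exons (ES), 3 use another donor (AD), 3 place an intron in an exon (IE) and 1 uses another acceptor (AA). Hml had 48 events with 393 reads, Pxn 27 with 2222 reads, eater 2 with 54 reads, NimC1 1 with 2 reads and Lsp2 2 with 1 read each. Lsp1alpha, Lsp1beta, Lsp1gamma and Fbp1 had none, although Fbp1 alone had between 4950.0 and 29067 exon counts per library. The libraries hold between 554656 and 3507067 event reads. Event CPM is scaled to the reads of the events tested, between 464294 and 3257033 a library, times TMM factors of their own. Only 7 member events, 6 in Pxn and 1 in Hml, reached the 50 reads needed for the test. Of these 4 were called in IFM against brain (63.5% of all 16595 events), 1 in IFM against leg (42.7%) and 1 in brain against leg (34.8%).

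The 3 events with most reads were in Pxn and were highest in brain. The largest joins 2611710 to 2629914 on 3L, across 2 annotated exons of 672 bases. The IFM replicates had 66 and 122 reads of it, those of brain 241 and 182 and those of leg 61 and 64. As event CPM this was 56.6 and 65.2 for IFM, 300.3 and 263 for brain and 111 and 124 for leg, with no overlap. IFM was lower than brain (log2 fold change −2.21, SE 0.41, adjusted p = 0.00129), brain was higher than leg (1.26, SE 0.40, adjusted p = 0.0344) and IFM over leg did not pass (−0.95, SE 0.40, adjusted p = 0.0826). The call of brain over leg was lost without the first IFM replicate (adjusted p = 0.053), without either leg replicate (0.107 and 0.0839) and with events of at least 10 reads (0.0833). The second joins 2601461 to 2611639, with 40.0 and 110.0 reads for IFM, 251 and 158 for brain and 40.0 and 76 for leg, and was lower in IFM than in brain (−2.53, SE 0.51, adjusted p = 0.00207). Its left end is the end of an exon of CG16986, on the opposite strand, and not a Pxn splice site, as for 7 of the 27 Pxn events with 930.0 of the 2222 reads. The third joins 2604279 to 2611639 across 5 exons of 2235 bases with 27 and 73 reads for IFM, 140.0 and 69 for brain and 25 and 42 for leg (IFM over brain −2.13, SE 0.54, adjusted p = 0.00664, and 0.069 without the first IFM replicate). These event levels, like the gene-table means, were highest in brain, and events were not divided by gene level since Pxn has no exon counts here. Another Pxn event among the 5 with most reads, 2611159 to 2611639 across 1 exon of 242 bases, ran the other way, at 12.9 and 20.3 event CPM for IFM, 11.2 and 15.9 for brain and 7.29 and 5.82 for leg, but no comparison passed (adjusted p = 0.2 to 0.726).

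All 48 Hml events skipped exons between annotated splice sites, over between 1 and 23 exons. Of them, 22 events with 321 of the 393 reads left from the same donor, the exon end at 13846941, and 18 events had 1 read. The event with most reads joins it to 13854094, across 14 exons of 6024 bases, with 6 and 8 reads for IFM, 24 and 10 for brain and 21 and 15 for leg. It was lower in IFM than in brain (log2 fold change −2.22, SE 0.72, adjusted p = 0.0212) and than in leg (−2.82, SE 0.73, adjusted p = 0.0118), while the level of Hml itself did not pass under TMM scaling in either comparison. Both calls rest on the 14 reads of IFM, and both were lost without the first IFM replicate (adjusted p = 0.103 and 0.0737) or the second (0.186 and 0.126). The call against brain was also lost without the first brain replicate (0.0656) and with events of at least 10 reads (0.0675), and that against leg with library sizes from exon counts (0.0643). Per 1000 exon counts, the summed event reads of Hml came to 26.8 for IFM, 10.9 for brain and 9.50 for leg. Events of all genes followed the same tissue order. IFM libraries had 1798695 and 3507067 event reads against 96103759 and 177954954 exon-bin counts. Brain had 794567 and 608528 against 71672005 and 67026973, and leg 569194 and 554656 against 75151241 and 79544016. Whether Hml departed from this background was not tested. IFM had reads in 40 of the 48 events, brain in 22 and leg in 15, and IFM also had the most event reads in all, so this breadth was not compared further. In eater, the larger event joins 27095979 to 27099559 on 3R across 2 exons of 3067 bases that hold the long second bin, with 3 and 17 reads for IFM, 2 and 0 for brain and 9 and 13 for leg.

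**Figure D5:**
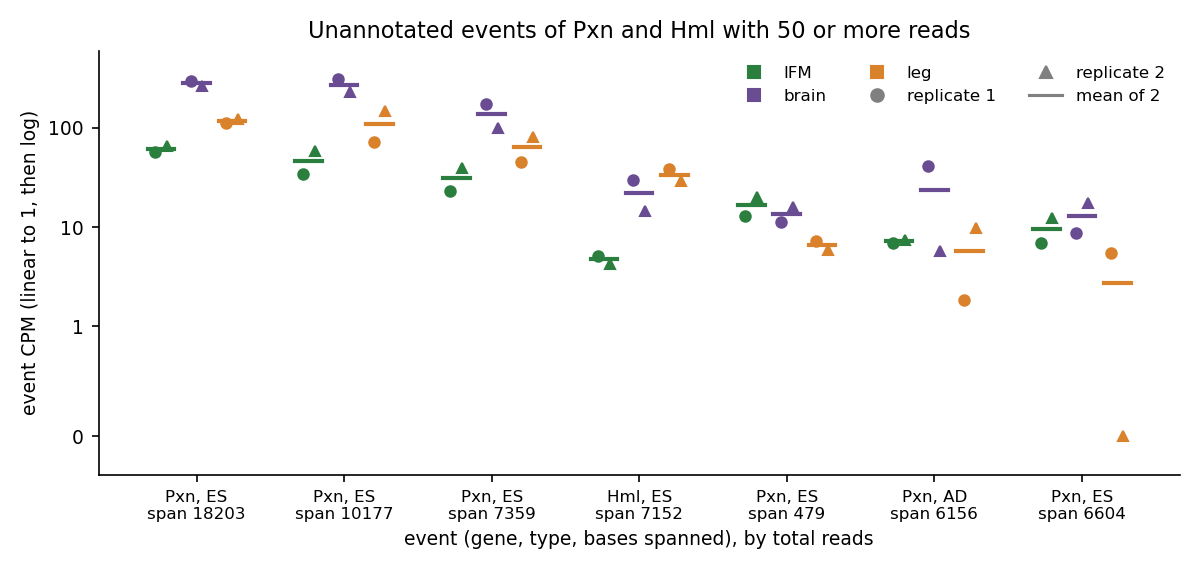
Event CPM per library of the 7 tested events of Pxn and Hml, ordered by total reads, on an axis that is linear to 1 and logarithmic above, with replicate 1 as a circle, replicate 2 as a triangle and the mean of 2 as a bar. The 3 leading Pxn events are highest in brain, up to 313 event CPM, and the Hml event is lowest in IFM, at 5.14 and 4.28.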

How the data were processed

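Poly(A) RNA of IFM, brain and leg was sequenced from 2 libraries per tissue. For genes, the submitters' processing notes name the build BDGP6, STAR 2.7.3a for alignment, SAMtools 1.1, featureCounts (Subread 2.0.0) for counting and DESeq2 1.32.0. Of their 3 gene tables only the mean normalized signal over a table's 4 libraries was used, as the authors' mean. The columns of fold changes and p-values in the gene and exon tables were not used. The 3 exon tables hold raw counts per DEXSeq exon bin deposited by the authors, in which a read over several bins counts in each. Columns were assigned to tissues by which tables share them and what those tables name in their headers, and the brain and leg columns carry no replicate number. Unannotated events come from fortuna, which the authors applied to the read ends separately, depositing raw counts of reads per event, and the ends of a library were summed.

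Of 64185 bins listed, 63176 had a value in all 6 libraries and named 1 gene. Values that stand in 2 tables (344476) were equal. Between 136 and 143 lines of a table had no readable bin or gene and were left out. Bins were summed for 12388 genes. Genes, bins and events with at least 50 counts were tested with the quasi-likelihood F test of edgeR 4.0.16 (R 4.3.3) after TMM scaling, bins with its diffSpliceDGE. A joint fit of the 6 libraries had no factor but tissue, and p-values were adjusted over all features after Benjamini and Hochberg, with calls under 0.05. Intervals of ratios are 95% intervals from the moderated t distribution of that fit. For Pxn, each table's mean was divided by the geometric mean of the effective exon library sizes of its 4 libraries, and the 3 tissue levels were solved from the 3 means. This step was added after the data were seen. Tables, ratios and figures were made with Python 3.11.15 (matplotlib 3.10.9, scipy 1.17.1, numpy 2.4.6, pandas 2.3.3).

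The members and lists were chosen with earlier results of these data known. Named genes are the 9 members, the 4 genes of each list with the highest mean CPM, the 5 genes nearest in pattern to Hml and to Lsp2 among genes of at least 5 CPM, member bins past the threshold and the 5 member events with most reads. He, Sr-CI, ppl, the bins of Lsp1beta, Lsp1gamma, eater and Hml and the eater event were named besides, after their values were seen. On simulated counts for IFM against brain, 50 genes per size were changed among 12263. The test recovered 8 of the 2-fold, 38 of the 4-fold, 46 of the 8-fold and 47 of the 16-fold changes. In that setting 2-fold changes were mostly missed. In the data 66.6% of genes were called, far more than were changed there, so these recoveries do not carry over to the data. Event differences of same-numbered replicates had correlations of 0.0115, 0.0124 and 0.0236. No shared effect of equal numbers was thus seen, which cannot settle whether the libraries were paired. Alternatives were other scaling, filters, bins and tools, the 4 libraries of a comparison alone, and leaving out each library. No genome or sequence table of these genes was used here.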

Additional observations from a re-analysis of the deposited data

How the results depend on the processing

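No paired analysis was possible because the brain and leg columns of the exon tables carry no replicate number, so the replicate block could be fitted for events only. The block, between numbers not known to pair the libraries, moved the member events called in brain against leg from 1 to 2. In that comparison 3 were called with total event reads, 2 with library sizes from exon counts (each tissue's mean) and 2 with DESeq2. The share of all events called under these settings is not given here, so the counts describe the member events only. In IFM against leg, 4, 0 and 2 were called under the same settings, and 2 with events of at least 10 reads. That lower filter raised the events called in IFM against brain from 10534 to 17291, since it tested 46884 events in place of 16595. Leaving out each library in turn gave 5 to 7, 6 to 8 and 3 to 6 member genes called in IFM against brain, IFM against leg and brain against leg, with 3 in brain against leg without the second brain library, 0 member bins in each, and 2 to 5, 0 to 3 and 0 to 1 member events. Over all features these ranges were 6454 to 8083, 5448 to 6601 and 3812 to 5449 genes, 2420.0 to 4286, 1349 to 2000.0 and 1492 to 2661 bins, and 6517 to 10659, 3551 to 7156 and 3282 to 5127 events.

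Signs turned where the difference was small. The log2 fold change of Hml in IFM over brain was 0.00145 with relative log expression factors and 0.000664 with DESeq2, and ran from −0.84 to 0.46 without 1 library. Total-count scaling turned NimC1 in IFM over brain to −0.88 and, in brain over leg, Fbp1 to 0.12, Hml to 0.30 and Lsp1gamma to 0.046. Total event reads turned the Pxn events 2611159 to 2611639 (IFM over brain −0.86, without 1 library −0.30 to 0.70) and 2601536 to 2607693 (IFM over leg −0.46, without 1 library −0.56 to 1.82). Exon library sizes turned the Hml event in brain over leg to 0.0746 (without 1 library −1.01 to 0.00741). The cause was not tested. Over the single genes and tested events of the members and all alternatives, 488 values kept direction and side of the threshold, 27 passed it newly, 20 no longer passed and 14 reversed. With 2 libraries per tissue, and as few as 3 reads behind a tested event in a tissue, modest differences could not be resolved.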
